A study of Mus musculus with 12 samples.

Results

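Glomerular endothelial cells (GEC) line the capillaries of the kidney's filter, and the comparison described here is between the brightly labelled GEC of mice with Alport syndrome (AS) and those of wild type (WT) mice. In these mice Tek-Cre switches on a tdTomato (tdT) reporter, and GEC were sorted by flow cytometry from digested glomeruli as dim tdT or bright tdT cells. The bright tdT cells gave 6 of the series' 12 libraries, 3 from WT and 3 from AS mice, chosen by their sample labels, with 1 library per mouse. All mice were C57BL/6 animals of 4 months that carry the same Tek-Cre and reporter alleles, and the AS mice carry in addition the Col4a5 mutation of the B6.Cg-Col4a5tm1Yseg/J strain, labelled Col4a5 -/-. Tek-Cre is active in endothelium and in cells of the blood lineage, so that the label alone does not tell these apart, and the sort sets which cells are present. RNA was measured by poly-A RNA-seq.

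AS is caused by loss of the α3α4α5 network of type IV collagen, which podocytes secrete into the glomerular basement membrane. The other type IV collagen chains, α1 and α2, are made by endothelial and mesangial cells and form the network of the immature membrane. GEC are fenestrated, read shear stress through factors such as KLF2, respond to podocyte VEGF, and display selectins and cell adhesion molecules to leukocytes when they are activated. Apelin and its receptor, transforming growth factor β, endothelins and prostacyclin act in these cells as signals of vessel growth, tone and matrix.

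Counts on genes summed to 13674045 to 15074909 per library, and 17521 genes were listed, of which 14396 passed the filter on low counts and were tested. CPM below are counts scaled to a common library size with TMM factors. On the first principal component of log CPM (50.8% of the variance) the 3 WT libraries lay at -84.7, -51.6 and -22.9 and the AS libraries at 2.23, 72.9 and 84.1, so that replicate 2 of AS was nearest to WT. Col4a5 (chromosome X, 141475385 to 141689234, plus strand of GRCm38, protein-coding), the mutated gene, had 158, 69 and 78 counts in WT and 43, 104 and 55 counts in AS. The groups overlapped (log2 fold change -0.60, adjusted p = 0.495). GEC are not the main source of Col4a5, and its level is no check of the genotype. RNA of the Y-linked Ddx3y was present in all 6 libraries at 23.3 to 61.4 CPM.

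The sorted cells carried the RNA of endothelium. The 24 genes fixed as endothelial identity summed to 13267, 18635 and 17146 CPM in WT and 21482, 19096 and 18581 CPM in AS. Markers of T and NK cells summed to 25.2, 15.7 and 14.4 CPM in WT and 15.1, 17.2 and 20.7 CPM in AS and those of B cells to 12.5, 5.96 and 7.48 CPM in WT and 12.5, 18.3 and 8.08 CPM in AS. Markers of other kidney cells were present, and the sums of some of these lists lay apart by genotype. The 22 proximal tubule markers summed to 5934, 1415 and 1745 CPM in WT and 803, 1605 and 694 CPM in AS. WT replicate 1 stood highest, and AS replicate 2 lay between the other WT libraries. In the other segments of the tubule (loop, distal tubule and collecting duct) the sums were 741, 471 and 654 CPM in WT and 54, 283 and 34.9 CPM in AS, every AS library below every WT library. Podocyte markers summed to 1114, 1271 and 1353 CPM in WT and 1429, 1601 and 1591 CPM in AS, macrophage and myeloid markers to 245, 186 and 272 CPM in WT and 393, 306 and 396 CPM in AS, and mesangial and mural markers to 1954, 1207 and 927 CPM in WT and 2252, 1206 and 2162 CPM in AS, with AS replicates 1 and 3 and WT replicate 1 at the top of the last. The defining leukocyte marker Ptprc had 4.4, 1.99 and 2.97 CPM in WT and 3.15, 8.04 and 2.67 CPM in AS. Of the 22 proximal tubule markers 16 were lower in AS at an unadjusted p under 0.05, and the count was 2 without WT replicate 1 and 20 without AS replicate 2. Of 18 markers of the loop, distal tubule and collecting duct 14 were lower, 9 without WT replicate 1 and 16 without AS replicate 2. Of 15 podocyte markers 7 were higher, 3 without AS replicate 2, and of 14 mesangial and mural markers 2 were higher and 3 lower. The latter list had 6 higher and 2 lower without WT replicate 1, and 5 higher and 2 lower without AS replicate 2. In bulk RNA of sorted cells, a change in the number of such cells and a change of RNA per cell cannot be told apart.

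**Figure D1:**
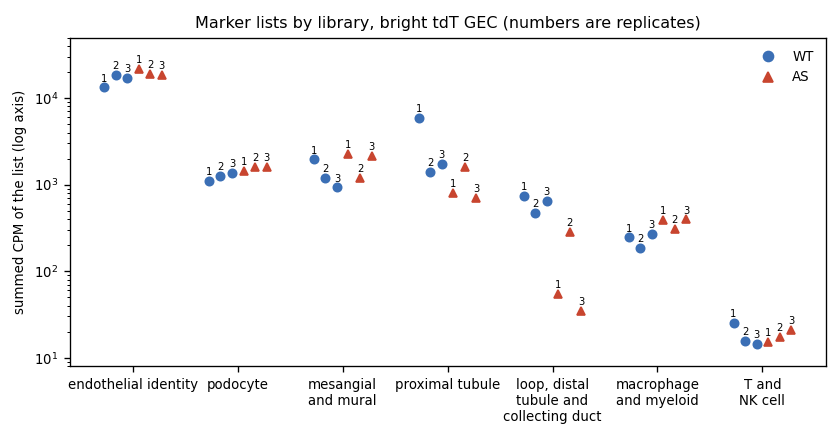
Summed CPM (log axis) of 7 lists of cell type markers in each bright tdT library, circles for WT and triangles for AS, numbered by replicate. Endothelial genes are highest in all 6 libraries, proximal tubule markers are lower in AS replicates 1 and 3 than in every WT library while AS replicate 2 (1605 CPM) lies above WT replicate 2 (1415 CPM), and T and NK cell markers sum to at most 25.2 CPM.

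After adjustment over all 14396 genes, 65 genes (0.452% of those tested) differed between AS and WT in bright tdT GEC, 27 higher in AS (0.188%) and 38 lower (0.264%), with edgeR's quasi-likelihood test. At an unadjusted p under 0.05, which is used below only to describe lists, 3145 genes (21.8%) differed, 1437 higher (9.98%) and 1708 lower (11.9%), and the median log2 fold change of all genes tested was -0.03. These percentages are the background for the counts of list members below. The WT and AS libraries did not overlap for any of the 65 genes, as for 3525 of the 14396 tested (24.5%). The 65 genes had log2 fold changes of 1.12 to 4.70 where they rose and -4.31 to -1.32 where they fell. The number of calls rests on few mice and on the model of the spread. The calls come from the version 4 quasi-likelihood fit of edgeR, which was chosen with the counts of both fits known. The version 3 fit, the default of the release used, called 0 genes after adjustment (lowest adjusted p = 0.0517, 2906 genes at an unadjusted p under 0.05), and DESeq2 called 1117. Leaving out WT replicate 1, 2 or 3 gave 239, 254 and 0 calls, and leaving out AS replicate 1, 2 or 3 gave 0, 327 and 1, with 1682 to 3662 genes at an unadjusted p under 0.05. All 65 genes kept their direction and an unadjusted p under 0.05 in the version 3 fit, with the proximal tubule markers as a covariate (0 genes passed the adjustment there, lowest adjusted p = 0.0584, 1325 at an unadjusted p under 0.05), without WT replicate 1 and without AS replicate 2. These fits use the same libraries from which the 65 genes were picked, or a part of them, and are no independent check. An alternative setting moved the fold of 11 of the 65 genes by over 1.5 times.

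**Figure D2:**
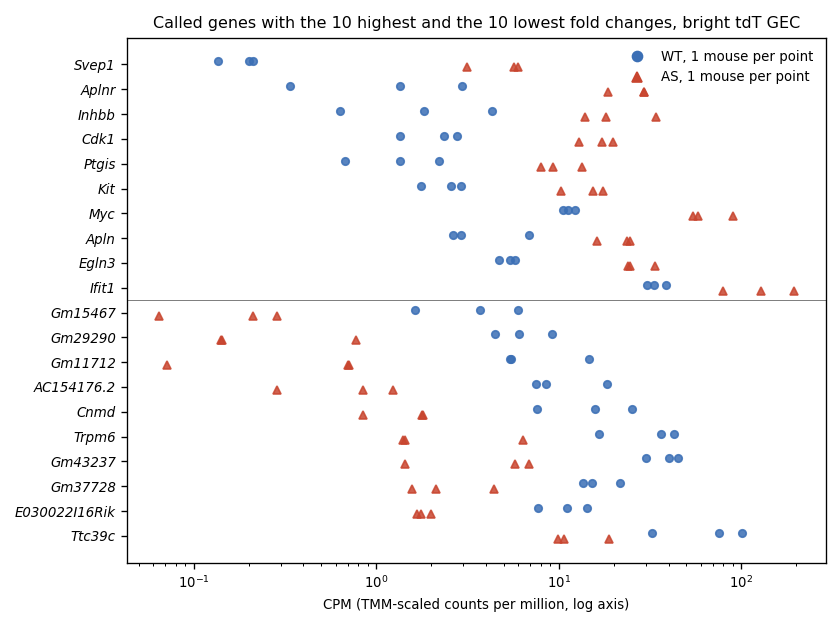
CPM on a log axis of the 20 called genes that moved most in either direction (10 each way, average logCPM above 1), 1 point per mouse, circles for WT and triangles for AS. Svep1 lies at 0.136 to 0.213 CPM in WT and 3.16 to 6.03 CPM in AS, and in each row the 2 groups stay apart.

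A secreted matrix gene and the receptor of apelin had the highest log2 fold changes of the genes that rose. Svep1, a large secreted matrix protein that binds integrin α9β1 and takes part in vessel remodelling, had 2, 3 and 3 counts in WT and 79, 93 and 45 counts in AS. Its log2 fold change was 4.70 (standard error 0.62, adjusted p = 0.0225), and because the WT counts are so few the ratio of the summed counts, 27.2, carries a 95% counting interval of 13.5 to 63.7 (exact binomial, counting error only). Aplnr, the apelin receptor, had 0.339, 1.35 and 2.97 CPM in WT and 18.6, 29.5 and 29.5 CPM in AS (log2 fold change 4.05, standard error 0.51, adjusted p = 0.0291). Its ligand Apln, a peptide made by sprouting endothelium, had 2.91, 2.62 and 6.88 CPM in WT and 23.8, 16.2 and 24.7 CPM in AS (log2 fold change 2.37, standard error 0.42, adjusted p = 0.0422). Both lay above WT in every AS library, Aplnr 16.6-fold and Apln 5.18-fold. Over the alternative settings the log2 fold change of Aplnr was 3.46 to 4.91. Of 22 apelin, adrenomedullin and sprouting genes tested, 10 were higher and 4 lower in AS (unadjusted p under 0.05, median log2 fold change 0.60). Beside the apelin pair, Plaur, the urokinase receptor, had a log2 fold change of 1.13 (unadjusted p = 0.0016) and Ackr3, a scavenging receptor of CXCL12 and adrenomedullin, of 1.13 (unadjusted p = 0.00367). Esm1, a secreted proteoglycan of VEGF-stimulated tip cells, had 67.8, 115 and 97.6 CPM in WT and 34.8, 53.1 and 39.6 CPM in AS (log2 fold change -1.14, unadjusted p = 0.00148, adjusted p = 0.0656). Adm, the vasodilator peptide adrenomedullin, had 26.9, 45.2 and 39.8 CPM in WT and 14.8, 26.6 and 18.8 CPM in AS (log2 fold change -0.89, unadjusted p = 0.015, adjusted p = 0.141). Esm1 and Adm lay below WT in every AS library, in the other direction from the apelin pair, and did not reach the adjusted threshold.

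Positions and neighbours of the leading genes follow the Gencode M21 annotation of GRCm38. Svep1 (chromosome 4, 58042442 to 58206859, minus strand) is overlapped on the other strand by 1 annotated gene, Gm26889, and the strand counted is not named, so that reads of the pair cannot be told apart. Aplnr (chromosome 2, 85136225 to 85139923, plus strand), Apln (chromosome X, 48025146 to 48034853, minus strand), Myc (chromosome 15, 61985391 to 61990374, plus strand), Sele (chromosome 1, 164048234 to 164057677, plus strand), Kit (chromosome 5, 75574916 to 75656722, plus strand), Ednrb (chromosome 14, 103814625 to 103844402, minus strand) and Cdk1 (chromosome 10, 69335146 to 69352938, minus strand) are protein-coding and are overlapped by no other annotated gene. Of the 65 called genes, 37 overlap another annotated gene, 28 of the 38 that fell and 9 of the 27 that rose.

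Both chains of the α1α1α2 type IV collagen rose. Col4a1 (chromosome 8, 11198423 to 11312826, minus strand) had 207, 308 and 219.8 CPM in WT and 745, 608 and 664 CPM in AS (log2 fold change 1.46, standard error 0.22, adjusted p = 0.0345). Col4a2 (chromosome 8, 11312805 to 11449287, plus strand) had 94.9, 125 and 93.4 CPM in WT and 332, 256 and 353 CPM in AS (log2 fold change 1.59, standard error 0.22, adjusted p = 0.0291). The AS libraries were higher than every WT library for both chains, 2.75-fold and 3-fold. The 2 genes lie head to head, and their RefSeq start sites, 11312826 for Col4a1 and 11312805 for Col4a2, are 21 bases apart on opposite strands. The 30 bases around the start of Col4a2 are shown because both transcription units begin in or beside them (RefSeq, GRCm38.p6, 5′ to 3′), with the letters CCCTCCC, searched on both strands, in capitals.
Col4a2 (chr8:11312780-11312809, plus strand): gttggcgctgccCCCTCCCctcggcagtgc
CCCTCCC was in 9 of the 15 promoters matched for the basement membrane list and in 31.8% of the 9941 promoters of tested genes (250 bases before to 50 after the start).

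Other components of the basement membrane were higher in AS without passing the adjusted threshold. Of 22 basement membrane genes tested, 11 were higher and 2 lower in AS (unadjusted p under 0.05, median log2 fold change 0.59). Lama4, the laminin chain of endothelium, had 44.2, 64.8 and 79.5 CPM in WT and 146, 117 and 156 CPM in AS (log2 fold change 1.15, unadjusted p = 0.000916, adjusted p = 0.0593). Sparc, a collagen-binding matricellular protein, Nid1 and Nid2, which bridge laminin and collagen IV, and Hspg2, the core protein of perlecan, had log2 fold changes of 0.98, 1.06, 1.37 and 0.85, each with an adjusted p of 0.0651 to 0.0811. The chains of the mature network were not shown to differ, with log2 fold changes of 0.36 for Col4a3 (adjusted p = 0.585) and -0.11 for Col4a4 (adjusted p = 0.857). Podocyte markers moved with this list, 7 of 15 higher in AS at an unadjusted p under 0.05 against 0 lower (Nphs1, nephrin, 7.32, 6.88 and 9.78 CPM in WT and 25.6, 38.7 and 15.9 CPM in AS), and their part in it was not tested.

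Among fibrillar collagens and matrix assembly genes, Col1a2, a chain of type I collagen, rose and had 16.1, 13.9 and 13.9 CPM in WT and 58.2, 31.9 and 51.8 CPM in AS (log2 fold change 1.69, standard error 0.29, adjusted p = 0.0412). Of 30 genes of interstitial collagen and matrix assembly tested, 9 were higher and 0 lower in AS (unadjusted p under 0.05, median log2 fold change 0.41). Loxl2, a lysyl oxidase that cross-links collagen, had a log2 fold change of 1.90 (unadjusted p = 0.00336) and Adamtsl2, a binder of fibrillin, of 1.10 (unadjusted p = 0.00553). Emid1, a secreted protein with an EMI domain, rose as well (log2 fold change 1.31, adjusted p = 0.0421). The mesangial gene Pdgfrb was highest in AS replicates 1 and 3, with 102, 62.8 and 53.1 CPM in WT and 154, 74.7 and 193 CPM in AS, the 2 libraries that were also highest for Col1a2, and the part of mesangial RNA in Col1a2 was not tested. Of 16 metalloproteinases and inhibitors tested, 5 were higher and 0 lower in AS (unadjusted p under 0.05, median log2 fold change 0.48). Mmp14, a membrane-bound collagenase, had 8.6, 16.7 and 2.97 CPM in WT and 43.9, 35.3 and 32.8 CPM in AS (log2 fold change 1.99, unadjusted p = 0.00146, adjusted p = 0.0656), the AS libraries above WT. Mmp12 was below the filter, with 0 counts in each WT library and 4, 9 and 4 counts in the AS libraries.

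Among receptors for matrix no member passed the adjustment. Of 18 integrin subunits tested, 4 were higher and 1 lower in AS (unadjusted p under 0.05, median log2 fold change 0.18). Itgb1, the β1 subunit shared by most matrix receptors, had 457, 565 and 471 CPM in WT and 899, 1013 and 945 CPM in AS (log2 fold change 0.94, unadjusted p = 0.000663, adjusted p = 0.0562). Itga9, the α9 subunit that pairs with β1 and binds SVEP1, had 80.4, 100.1 and 114 CPM in WT and 227, 167 and 218 CPM in AS (log2 fold change 1.06, unadjusted p = 0.000649, adjusted p = 0.056). Both were higher in every AS library without passing the adjustment. Itgb6, an epithelial subunit that activates latent TGF-β, had 26.4, 7.87 and 11.1 CPM in WT and 1.07, 5.96 and 0.843 CPM in AS (log2 fold change -2.49, unadjusted p = 0.0044, adjusted p = 0.0911), lower in AS as the tubule markers were. Of 20 glycocalyx proteoglycan genes tested, 5 were higher and 1 lower in AS (unadjusted p under 0.05, median log2 fold change 0.39). Ndst1, a heparan sulfate sulfotransferase, led this list (log2 fold change 1.44, unadjusted p = 0.000894).

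Of the TGF-β family, the ligand Tgfb2 fell and the activin subunit Inhbb rose. Tgfb2 had 209, 245 and 235 CPM in WT and 63.9, 70.3 and 94.3 CPM in AS (log2 fold change -1.59, standard error 0.22, adjusted p = 0.0291), 3.01-fold lower in AS. Inhbb, the β subunit of activin B, had 1.83, 0.638 and 4.32 CPM in WT and 18.1, 14 and 34.3 CPM in AS (log2 fold change 3.27, standard error 0.57, adjusted p = 0.0421), 9.66-fold higher, with log2 fold changes of 2.54 to 4.11 over the alternative settings. Of 25 TGF-β, activin and BMP genes tested, 5 were higher and 4 lower in AS (unadjusted p under 0.05, median log2 fold change -0.07). The Id genes, targets of BMP signalling, were lower, with log2 fold changes of -1.10 for Id1, -1.01 for Id2 and -0.85 for Id3 (adjusted p = 0.064, 0.0628 and 0.0951). Smad3, a transducer of TGF-β, and Bmp2 were higher, at 0.91 and 1.21 (adjusted p = 0.0706 and 0.0986).

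Of the genes of vessel tone, an endothelin receptor and the prostacyclin synthase rose. Ednrb, the endothelin B receptor, through which endothelium clears endothelin and releases dilators, had 214, 261 and 313 CPM in WT and 849, 984 and 762 CPM in AS (log2 fold change 1.72, standard error 0.22, adjusted p = 0.0291), the groups lying far apart. Ptgis, prostacyclin synthase, had 10, 19 and 33 counts in WT and 187, 124 and 133 counts in AS (log2 fold change 2.84, standard error 0.50, adjusted p = 0.0422). Edn1, the ligand endothelin 1, had 101, 163 and 135 CPM in WT and 37.5, 41 and 65.1 CPM in AS and lay lower in each AS library (log2 fold change -1.48, unadjusted p = 0.000284, adjusted p = 0.0516). Ptgs1, cyclooxygenase 1, had 43.1, 55.9 and 69.2 CPM in WT and 143, 126 and 116 CPM in AS and lay higher (log2 fold change 1.19, unadjusted p = 0.000379, adjusted p = 0.0547). Of 18 prostanoid, nitric oxide and endothelin genes tested, 8 were higher and 3 lower in AS (unadjusted p under 0.05, median log2 fold change 0.60). The receptor and its ligand lay in opposite directions, and the receptor passed the adjusted threshold.

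In the Notch pathway 0 of 16 genes passed the adjustment. Jag1, a Notch ligand, had 31, 41.2 and 37.4 CPM in WT and 16.3, 15.4 and 15.3 CPM in AS (log2 fold change -1.22, unadjusted p = 0.000547, adjusted p = 0.0547). Hey1, a target gene, had 50.7, 119 and 70 CPM in WT and 36.8, 39.9 and 36.7 CPM in AS (log2 fold change -1.08, unadjusted p = 0.00496, adjusted p = 0.0958). Both genes lay below WT in every AS library. The ligands Dll4 and Dll1 were higher, with log2 fold changes of 0.75 and 1.15 (unadjusted p = 0.0138 and 0.00525). The median of the list was -0.04.

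Endothelial activation genes were higher in AS. Sele, E-selectin, which captures rolling leukocytes, had 43, 58.7 and 51.1 CPM in WT and 150.0, 211 and 208 CPM in AS (log2 fold change 1.90, standard error 0.23, adjusted p = 0.0291), 3.73-fold higher. Il1a, the cytokine interleukin 1α, had 12.1, 15.7 and 8.43 CPM in WT and 39.7, 44.8 and 42.6 CPM in AS (log2 fold change 1.81, standard error 0.29, adjusted p = 0.0345). Kit, the receptor of stem cell factor, had 2.57, 2.91 and 1.75 CPM in WT and 10.2, 17.5 and 15.4 CPM in AS (log2 fold change 2.58, standard error 0.41, adjusted p = 0.0345). Vcam1, which binds leukocyte integrins, had 6.1, 8.22 and 6.54 CPM in WT and 21.3, 18.4 and 28.1 CPM in AS and was just outside the threshold (log2 fold change 1.70, adjusted p = 0.0516). Of 26 genes of leukocyte adhesion and inflammatory signals tested, 20 were higher and 0 lower in AS (unadjusted p under 0.05, median log2 fold change 0.99). Without WT replicate 1 the count was 19 higher, without AS replicate 2 it was 19, and with the proximal tubule covariate 11 higher and 1 lower. Icam1 had 42.8, 108 and 47.5 CPM in WT and 150.4, 141 and 121 CPM in AS, and WT replicate 2 stood near the AS libraries (log2 fold change 1.06, unadjusted p = 0.00933, adjusted p = 0.119). Ccl2 (1, 3 and 3 counts in WT against 5, 14 and 17 in AS) and Spon2 (0 counts in each WT library against 11, 1 and 9 in AS) were below the filter. Tyro3, a receptor kinase of dying-cell signals, and Lbp, the lipopolysaccharide-binding protein, had few counts. Tyro3 had 11, 3 and 0 counts in WT and 31, 18 and 23 counts in AS (adjusted p = 0.127). Lbp had 5, 18 and 39 counts in WT and 75, 107 and 58 counts in AS (adjusted p = 0.106). Macrophage markers moved with this list, 5 of 11 higher in AS against 0 lower (H2-Ab1 3.93, 4.11 and 3.3 CPM in WT and 11.5, 12.4 and 18.1 CPM in AS, C1qc 0.0678, 0.354 and 0 CPM in WT and 2.15, 0.907 and 2.81 CPM in AS), while Csf1r had 0.61, 0.993 and 0.27 CPM in WT and 0.932, 1.1 and 0.562 CPM in AS. Their part in it was not tested.

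**Figure D3:**
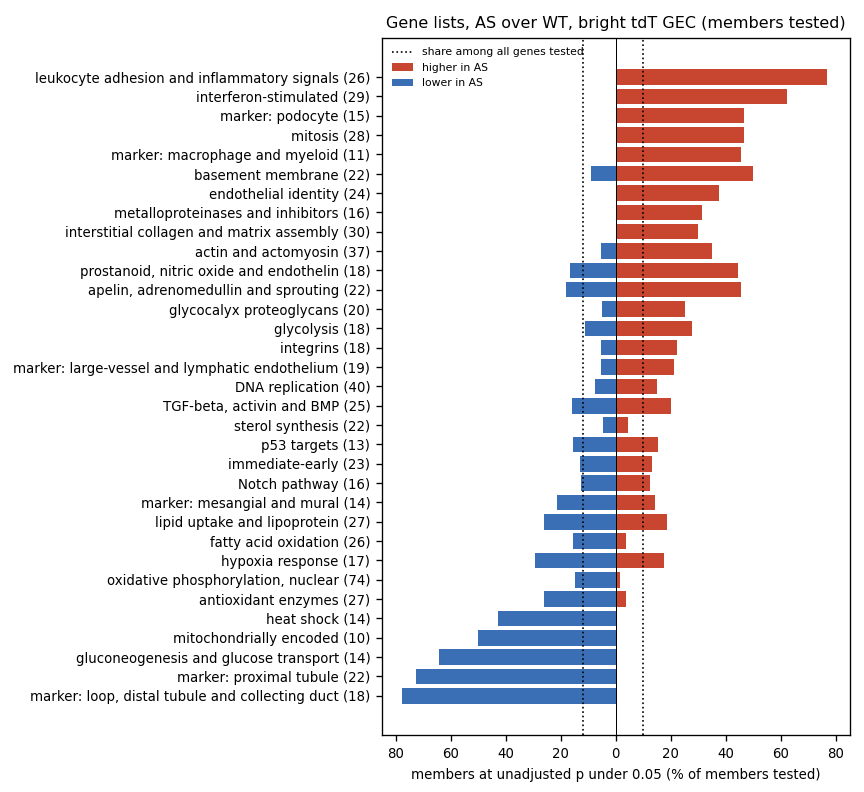
Share of the tested members of each gene list that were higher (right, red) or lower (left, blue) in AS at an unadjusted p under 0.05, in percent, with the number tested in brackets and the shares among all genes tested, 9.98% and 11.9%, as dotted lines. Inflammatory and interferon lists lean to the right and tubule, glucose and mitochondrial lists to the left.

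With the proximal tubule covariate fewer genes had an unadjusted p under 0.05 in all, 1325 in place of 3145, with 501 higher (3.48%) and 824 lower (5.72%), and most lists held fewer higher members. By that measure 7 of 22 basement membrane genes, 3 of 22 apelin and sprouting genes, 4 of 18 genes of vessel tone and 2 of 25 TGF-β family genes were higher. So were 3 of 30 genes of interstitial matrix, 1 of 16 metalloproteinases and inhibitors, 2 of 18 integrins, 2 of 20 glycocalyx genes, 6 of 37 actin genes, 1 of 18 glycolytic genes and 4 of 24 endothelial identity genes. Without WT replicate 1, 4 endothelial identity genes were higher in place of 9, and 3 TGF-β family and 3 glycolytic genes in place of 5 each.

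Interferon-stimulated genes were higher in AS and varied among the AS mice. Ifit1, which binds foreign RNA, had 33.2, 38.8 and 30.7 CPM in WT and 129, 79.3 and 194 CPM in AS (log2 fold change 1.97, standard error 0.32, adjusted p = 0.0345), highest in AS replicate 3, with log2 fold changes of 1.23 to 2.24 over the alternative settings. Of 29 interferon-stimulated genes tested, 18 were higher and 0 lower in AS (unadjusted p under 0.05, median log2 fold change 0.82). Gbp2, a guanylate-binding protein, had 14.7, 30.5 and 26.4 CPM in WT and 71.1, 56.8 and 153 CPM in AS (log2 fold change 1.97, adjusted p = 0.0547). Ifit3, a partner of IFIT1, had 51.1, 38.1 and 62.9 CPM in WT and 136, 96.5 and 292 CPM in AS (log2 fold change 1.78, adjusted p = 0.0592). Zbp1, a sensor of left-handed nucleic acid that is itself induced by interferon, had 1.63, 1.21 and 0.742 CPM in WT and 7.95, 4.28 and 23.1 CPM in AS (log2 fold change 3.29, unadjusted p = 0.00108, adjusted p = 0.0605). With the proximal tubule covariate 5 members were higher at an unadjusted p under 0.05. Without the covariate the count was 12 without WT replicate 1 and 19 without AS replicate 2. Parts of the promoters of the 3 higher members with the smallest p that hold the interferon response letters (GAAA and GAAAC with any 2 bases between) are shown, since these genes share them (RefSeq, GRCm38.p6, 5′ to 3′ on the gene's strand, the match on either strand in capitals).
Ifit1 (chr19:34640739-34640858, plus strand): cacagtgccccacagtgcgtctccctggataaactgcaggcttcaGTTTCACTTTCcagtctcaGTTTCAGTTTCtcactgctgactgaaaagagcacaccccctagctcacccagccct
Gbp2 (chr3:142620558-142620658, plus strand): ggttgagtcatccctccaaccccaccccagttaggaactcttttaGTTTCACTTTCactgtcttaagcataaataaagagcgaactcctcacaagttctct
Ifit3 (chr19:34583327-34583461, plus strand): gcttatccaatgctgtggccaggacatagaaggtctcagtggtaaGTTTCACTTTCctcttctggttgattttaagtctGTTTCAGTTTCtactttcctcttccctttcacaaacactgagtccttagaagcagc
The letters were found in 11 of 22 matched promoters of the list, against 1.11% of the 9941 promoters of tested genes. Among the members that were higher at an unadjusted p under 0.05 they were in 7 of 13 and among the rest in 4 of 9. A match of letters does not show that a factor binds there.

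The letters GGGA and TTTCC with any base between, a form of the site of NF-κB, were in 5 of 20 matched promoters of the inflammatory list and in 0.503% of all, in 3 of the 16 members higher at an unadjusted p under 0.05 and in 2 of the 4 others. The 3 higher members are shown beside their values, with the match in capitals.
Nfkb2 (chr19:46305670-46305724, plus strand): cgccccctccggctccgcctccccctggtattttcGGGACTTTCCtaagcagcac
Il6 (chr5:30013035-30013114, plus strand): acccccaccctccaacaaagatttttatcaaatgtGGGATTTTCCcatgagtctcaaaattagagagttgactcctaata
Cxcl2 (chr5:90903767-90903846, plus strand): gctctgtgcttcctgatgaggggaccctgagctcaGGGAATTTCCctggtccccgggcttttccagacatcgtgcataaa
Nfkb2, a subunit of NF-κB, had 31.2, 31.5 and 22.8 CPM in WT and 56.7, 63.6 and 39.7 CPM in AS. The cytokine Il6 had 37.9, 29 and 45.2 CPM in WT and 81.8, 56.2 and 54.9 CPM in AS, and the neutrophil chemokine Cxcl2 22, 13.3 and 15.4 CPM in WT and 22.9, 28.3 and 28.3 CPM in AS. All 3 lay higher in every AS library, with adjusted p of 0.102, 0.133 and 0.218, so that none passed.

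Myc and many genes of mitosis were low in WT and higher in AS. Myc, a transcription factor of cell growth, had 10.6, 11.3 and 12.3 CPM in WT and 57.8, 54.8 and 90 CPM in AS (log2 fold change 2.57, standard error 0.28, adjusted p = 0.0225), 5.92-fold higher and the lowest adjusted p of all genes together with Svep1. Cdk1, the kinase that drives entry into mitosis, had 2.78, 1.35 and 2.36 CPM in WT and 17.3, 13 and 20 CPM in AS (log2 fold change 2.94, standard error 0.41, adjusted p = 0.0291), 7.67-fold higher. Of 28 mitotic genes tested, 13 were higher and 0 lower in AS (unadjusted p under 0.05, median log2 fold change 1.22). The summed level of the mitotic genes was 59.6, 67.7 and 62.1 CPM in WT and 123, 139 and 133 CPM in AS, and most members rest on few counts (Cenpf 0, 8 and 0 counts in WT and 11, 45 and 33 counts in AS). The higher count was 7 without WT replicate 1, 7 without AS replicate 2 and 7 with the proximal tubule covariate. Ccnd1, the G1 cyclin, had 118, 77.5 and 88.9 CPM in WT and 193, 198 and 203 CPM in AS (log2 fold change 1.06, unadjusted p = 0.000507, adjusted p = 0.0547). Of 40 DNA replication genes tested, 6 were higher and 3 lower in AS (unadjusted p under 0.05, median log2 fold change 0.18). None of them was lower without WT replicate 1, with 6 higher, or with the covariate, with 4 higher. Parts of the promoters of the 3 higher members with the smallest p that hold the letters TTTGAA, the cell cycle homology region at which mitotic genes are controlled, are printed because nearly all members share them.
Cdk1 (chr10:69352883-69353028, minus strand): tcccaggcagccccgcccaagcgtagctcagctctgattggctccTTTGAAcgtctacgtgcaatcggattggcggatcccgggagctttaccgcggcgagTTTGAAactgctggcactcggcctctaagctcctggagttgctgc
Cenpf (chr1:189688057-189688129, minus strand): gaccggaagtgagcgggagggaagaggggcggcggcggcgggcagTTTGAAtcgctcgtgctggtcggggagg
Top2a (chr11:99024162-99024317, minus strand): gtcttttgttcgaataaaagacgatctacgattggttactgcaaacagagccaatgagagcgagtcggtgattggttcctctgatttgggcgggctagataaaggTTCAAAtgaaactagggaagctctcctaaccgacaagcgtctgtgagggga
TTTGAA, on either strand and in capitals, was in 20 of 22 matched promoters of the list and in 14.3% of all promoters of tested genes. It was in 9 of the 9 members higher at an unadjusted p under 0.05 and in 11 of the 13 others, a similar share.

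Of the genes of endothelial identity, Cd34 rose and none fell. Cd34, a sialomucin of capillary endothelium, had 229, 266 and 282 CPM in WT and 652, 497 and 605 CPM in AS (log2 fold change 1.18, standard error 0.20, adjusted p = 0.0413). Of 24 endothelial identity genes tested, 9 were higher and 0 lower in AS (unadjusted p under 0.05, median log2 fold change 0.40). Mcam, an adhesion molecule, and Plvap, the diaphragm protein of fenestrae that mature GEC largely lack, were higher without passing. Mcam had 104, 129 and 104 CPM in WT and 224, 204 and 239 CPM in AS (adjusted p = 0.0547). Plvap had 15.7, 16.5 and 12.4 CPM in WT and 47.4, 28.2 and 33.9 CPM in AS (adjusted p = 0.0605). Without WT replicate 1, the library with the lowest sum for this list, 4 were higher. Tek, the gene whose promoter drives the Cre, had 145, 271 and 179 CPM in WT and 259, 255 and 237 CPM in AS (log2 fold change 0.34, unadjusted p = 0.194, adjusted p = 0.453), and the groups overlapped. Cav1, of caveolae, had 144, 203 and 182 CPM in WT and 240.4, 260.0 and 288 CPM in AS (unadjusted p = 0.0179). In the cytoskeleton, 13 of 37 actin and actomyosin genes were higher and 2 lower (unadjusted p under 0.05), led by Tpm4, a tropomyosin (log2 fold change 0.85), and Tln1, the talin that activates integrins (1.26).

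Klf2 and 6 of 14 heat shock genes lay lower in AS at an unadjusted p under 0.05, and immediate-early genes were mixed. Klf2, induced by laminar shear, had 3073, 4315 and 4846 CPM in WT and 1345, 1318 and 2772 CPM in AS (log2 fold change -1.17, unadjusted p = 0.0052, adjusted p = 0.0979), every AS library below WT. Of 23 immediate-early genes tested, 3 were higher and 3 lower in AS (unadjusted p under 0.05, median log2 fold change -0.18). The list had 5 higher and 3 lower without AS replicate 2, 2 and 4 without WT replicate 1, and 1 and 6 with the proximal tubule covariate, at a median of -0.37. Beside Klf2, Nr4a3 and Fos lay lower (-0.84 and -0.71), Junb and Egr3 lay higher (0.85 and 0.60), and of this list Myc passed the adjustment. Of 14 heat shock genes tested, 0 were higher and 6 lower in AS (unadjusted p under 0.05, median log2 fold change -0.67). Hspb1, a small chaperone of actin, had 986, 1250.5 and 685 CPM in WT and 412, 237 and 572 CPM in AS (log2 fold change -1.26, unadjusted p = 0.00321, adjusted p = 0.0839). Klf9, a transcription factor induced by glucocorticoid and thyroid hormone, had 925, 746 and 993 CPM in WT and 334, 336 and 400.4 CPM in AS (log2 fold change -1.32, standard error 0.21, adjusted p = 0.0345). Thrb, the thyroid hormone receptor β, had 162, 117 and 143 CPM in WT and 48.8, 55 and 61.1 CPM in AS (log2 fold change -1.36, standard error 0.22, adjusted p = 0.0345). Dusp6, the phosphatase that ERK signalling induces against itself, and Trib1, a pseudokinase, rose by log2 fold changes of 1.28 and 1.42 (adjusted p = 0.0345 and 0.0412).

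In the response to low oxygen the list split. Egln3, a prolyl hydroxylase that marks hypoxia-inducible factor for decay, had 4.74, 5.74 and 5.39 CPM in WT and 33.5, 24.1 and 24.5 CPM in AS (log2 fold change 2.37, standard error 0.31, adjusted p = 0.0291), 5.17-fold higher. Of 17 hypoxia response genes tested, 3 were higher and 5 lower in AS (unadjusted p under 0.05, median log2 fold change -0.27). With the proximal tubule covariate 1 was higher and 3 lower, at a median of -0.07. P4ha1, a collagen prolyl hydroxylase, had 326, 838 and 317 CPM in WT and 155, 154 and 229 CPM in AS (log2 fold change -1.46, unadjusted p = 0.00261, adjusted p = 0.0788). Vegfa had 173, 287 and 227 CPM in WT and 134, 188 and 155 CPM in AS (log2 fold change -0.53, unadjusted p = 0.0495, adjusted p = 0.228), and its groups overlapped. Of 18 glycolytic genes tested, 5 were higher and 2 lower in AS (unadjusted p under 0.05, median log2 fold change 0.12). Ldha and Pkm, of the last steps of glycolysis, were higher (0.74 and 0.71, adjusted p = 0.109 and 0.129), and Ldhb and Pfkl were lower (-1.86 and -0.89, adjusted p = 0.121 and 0.117). Of 13 p53 targets tested, 2 were higher and 2 lower in AS (unadjusted p under 0.05, median log2 fold change 0.02), and of 22 sterol synthesis genes 1 was higher and 1 lower. Without WT replicate 1, and likewise without AS replicate 2, 1 of the p53 targets was higher and 1 lower.

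Most genes of gluconeogenesis and glucose transport, and the other metabolic genes named in this paragraph, were lower in AS without passing the adjusted threshold. Several of them moved with the tubule markers. Apom, the lipoprotein that carries sphingosine-1-phosphate, had 146, 12.1 and 27 CPM in WT and 0.86, 7.58 and 0.492 CPM in AS (log2 fold change -4.33, unadjusted p = 0.00157, adjusted p = 0.0669). Fabp3, a fatty acid carrier, had 34.3, 8.08 and 14.2 CPM in WT and 0.143, 4.15 and 0.913 CPM in AS (log2 fold change -3.39, unadjusted p = 0.00117, adjusted p = 0.0617). Ppargc1a, a coactivator of mitochondrial biogenesis, had 7.32, 3.62 and 4.05 CPM in WT and 0.0717, 1.69 and 0.773 CPM in AS (log2 fold change -2.52, unadjusted p = 0.00302, adjusted p = 0.0811). Slc22a8, an organic anion transporter of the proximal tubule, had 37.5, 3.9 and 8.56 CPM in WT and 1.29, 8.94 and 0.351 CPM in AS (unadjusted p = 0.0405). Slc2a2, the glucose transporter of tubule and liver, had 57.5, 8.79 and 16.5 CPM in WT and 0.287, 13.2 and 0.351 CPM in AS (unadjusted p = 0.0268). In these 5 genes WT replicate 1 was highest and AS replicate 2 the highest of the AS libraries, as in the summed proximal tubule markers. With those markers as a covariate the log2 fold changes became -1.45 (unadjusted p = 0.00935) for Apom, -1.56 (unadjusted p = 0.0205) for Fabp3, -1.35 (unadjusted p = 0.0941) for Ppargc1a, 0.38 (unadjusted p = 0.509) for Slc22a8 and -0.14 (unadjusted p = 0.763) for Slc2a2. Of 14 genes of gluconeogenesis and glucose transport tested, 0 were higher and 9 lower in AS (unadjusted p under 0.05, median log2 fold change -2.24). Without WT replicate 1, 3 were lower, and with the covariate 2, at a median of -0.30. Without AS replicate 2, 11 were lower, at a median of -3.92, and without both of these libraries 11, at -2.91. Esr2, estrogen receptor β, had 8.74, 5.39 and 3.1 CPM in WT and 0.502, 0.972 and 0.843 CPM in AS (log2 fold change -2.87, unadjusted p = 0.000673, adjusted p = 0.0562), with every AS library below every WT library. Mc4r, the melanocortin 4 receptor, had 14.9, 32.5 and 144 CPM in WT and 8.74, 4.93 and 12.3 CPM in AS (log2 fold change -2.89, unadjusted p = 0.00261, adjusted p = 0.0788), highest in WT replicate 3. Slc2a4, the insulin-regulated glucose transporter, had 6.03, 3.4 and 2.7 CPM in WT and 0.788, 2.4 and 0.211 CPM in AS (log2 fold change -1.79, unadjusted p = 0.0205, adjusted p = 0.157). For Slc2a4 too, WT replicate 1 and AS replicate 2 were the highest of their groups. Its log2 fold change with the covariate was -0.52 (unadjusted p = 0.471).

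WT replicate 1 had the highest sum of both mitochondrial lists, and among the AS libraries replicate 2 was highest for the mitochondrially encoded genes and replicate 1 for the nuclear genes. Of 74 nuclear genes of oxidative phosphorylation tested, 1 was higher and 11 lower in AS (unadjusted p under 0.05, median log2 fold change -0.42). Ndufa2, a subunit of complex I, had 107, 54.6 and 99.8 CPM in WT and 25.2, 35.3 and 24.3 CPM in AS (log2 fold change -1.62, unadjusted p = 0.000247, adjusted p = 0.0509) and Uqcrc1, of complex III, was higher (0.63). Of 10 mitochondrially encoded genes tested, 0 were higher and 5 lower in AS (unadjusted p under 0.05, median log2 fold change -1.27). The complex IV subunit mt-Co3 had 59.1, 25.4 and 29.7 CPM in WT and 11.1, 17.7 and 14.5 CPM in AS (unadjusted p = 0.003). With the proximal tubule covariate the medians became 0.03 for the nuclear and 0.13 for the mitochondrial genes, and 1 and 0 members were lower at an unadjusted p under 0.05. Without WT replicate 1 the medians were -0.06 and -0.64, and without AS replicate 2 -0.54 and -1.93. The lower members numbered 2 and 1 without WT replicate 1, and 9 and 8 without AS replicate 2. Of 27 antioxidant enzymes tested, 1 was higher and 7 lower in AS (unadjusted p under 0.05, median log2 fold change -0.44). With the covariate, and also without WT replicate 1, 0 of them were lower, whereas 10 were lower without AS replicate 2 and 6 without both of these libraries. The median was 0.07 with the covariate, -0.20 without WT replicate 1 and -0.36 without AS replicate 2. Sod2, the mitochondrial superoxide dismutase, had a log2 fold change of -0.94 and Txnrd1, thioredoxin reductase, of 0.78 (adjusted p = 0.13 and 0.081). Of 26 fatty acid oxidation genes tested, 1 was higher and 4 lower in AS (unadjusted p under 0.05, median log2 fold change -0.03). None of them was lower with the covariate, 3 were higher and 1 lower without WT replicate 1, and 1 was higher and 6 lower without AS replicate 2. Of 27 genes of lipid uptake and lipoproteins tested, 5 were higher and 7 lower in AS (unadjusted p under 0.05, median log2 fold change -0.04), and with the covariate 4 were lower. In the last list Fabp5, the fatty acid carrier of endothelium, rose (33.9, 27.3 and 38.9 CPM in WT and 99.1, 73.4 and 108 CPM in AS, log2 fold change 1.48, adjusted p = 0.0381), and Lpl, lipoprotein lipase, had 2159.7, 3385 and 3202 CPM in WT and 1706, 1511 and 1514 CPM in AS (log2 fold change -0.89, unadjusted p = 0.00391, adjusted p = 0.0875). Nr1h2, the liver X receptor β, had 19.2, 26.1 and 16.9 CPM in WT and 42.7, 34.3 and 37.7 CPM in AS (log2 fold change 0.88, unadjusted p = 0.00654, adjusted p = 0.105).

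Among the called genes that fell, Trpm6, the magnesium channel of the distal tubule, is itself a marker of the tubule (36.2, 16.7 and 42.6 CPM in WT and 1.43, 6.42 and 1.41 CPM in AS, log2 fold change -3.34, adjusted p = 0.0412), and its covariate value was -2.35 (unadjusted p = 0.00174). Other protein-coding genes that fell were Rab43, a Rab GTPase of the secretory route (894, 842 and 1659 CPM in WT and 273, 173 and 270.4 CPM in AS), Tspan8, a tetraspanin (378, 233 and 279 CPM in WT and 70.8, 94.9 and 59.8 CPM in AS), Usp2, a ubiquitin protease with a daily rhythm (46.7, 31.6 and 50.1 CPM in WT and 6.02, 10.9 and 7.52 CPM in AS), Cnmd, chondromodulin, an inhibitor of vessel growth (7.66, 15.9 and 25.3 CPM in WT and 1.79, 1.81 and 0.843 CPM in AS), and Aqp11, an intracellular water channel (84.8, 104 and 49.8 CPM in WT and 16.1, 24.2 and 16.7 CPM in AS). Their log2 fold changes were -2.25, -1.98, -2.39, -3.44 and -2.06, with adjusted p of 0.0291, 0.0291, 0.0291, 0.0381 and 0.0345. Rab43 overlaps 3 annotated genes on its own strand. Fbxl21 was at 25, 27 and 25 counts in WT and 2, 3 and 1 counts in AS, a ratio of summed counts of 12.8 with a 95% counting interval of 5.63 to 36.0. The remaining genes that fell and are deposited as protein-coding were Atp13a3, Cobll1, Coil, Naa16, Ptprr, Ttc39c, Wnk2, Zbtb25 and Zfp87, with log2 fold changes of -2.41 to -1.33. Ttc39c had 32.7, 101 and 76 CPM in WT and 18.9, 10.7 and 9.98 CPM in AS (log2 fold change -2.41, standard error 0.42, adjusted p = 0.0422). Genes that rose and are not described above were B4galt5 (listed as a processed transcript), Calm3, Cenpb, Neurl3, Rassf3 and Tubb6, at 1.12 to 1.91.

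The genes that fell included many that do not code for protein. In Gencode M21 all 27 genes that rose and 20 of the 38 that fell are protein-coding. The deposited type labels used below give 26 and 19, with 10609 of the 14396 tested, and they call some coding genes, such as B4galt5 and Rims3, processed transcripts or retained introns. Over all genes tested, of 302 TEC loci (the Gencode class of unspliced, polyadenylated transcripts not yet tested by experiment) 146 were lower and 3 higher in AS at an unadjusted p under 0.05, that is 48.3% and 0.993%, with a median log2 fold change of -1.31. For protein-coding genes the shares were 10.4% lower and 11.5% higher, with a median of 0.01. Of 31 sense intronic transcripts 13 were lower and 1 higher, of 239 antisense RNAs 63 and 12, of 296 lincRNAs 66 and 4, of 16 miscellaneous RNAs 12 and 0, and of 14 snoRNAs 9 and 0. Summed over TEC loci, the level was 1548 to 2760 CPM in the WT and 799 to 991 CPM in the AS libraries. The lower TEC count was 140 with the proximal tubule covariate, 168 without WT replicate 1 and 131 without AS replicate 2. In the dim tdT cells 15 of 262 TEC loci tested in both populations were lower and 49 higher in AS at an unadjusted p under 0.05, beside 2610 lower (18.9%) and 1422 higher (10.3%) of all 13801 genes tested in both, and the difference between the populations passed the adjusted interaction test for 32 of them, all with the lower change in bright tdT.

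**Figure D4:**
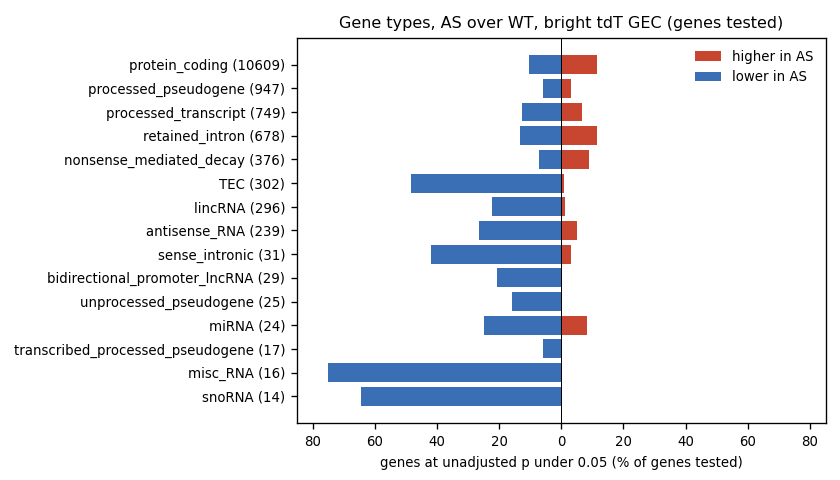
Share of the genes of each annotated type that were higher (right, red) or lower (left, blue) in AS at an unadjusted p under 0.05, in percent of the genes tested, whose number is in brackets. TEC loci (48.3% lower, 0.993% higher) and the small classes below them lean to the left, protein-coding genes (10.4% and 11.5%) do not.

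Malat1, a nuclear long non-coding RNA, had 119, 105 and 103 CPM in WT and 18.5, 41.5 and 26.4 CPM in AS (log2 fold change -1.92, standard error 0.29, adjusted p = 0.0345), every AS library below every WT library. Snora31, a small nucleolar RNA, had 42.5, 39.6 and 38.4 CPM in WT and 6.09, 14.3 and 9.35 CPM in AS (log2 fold change -2.01, standard error 0.32, adjusted p = 0.0345) and lies in Tpt1, whose own log2 fold change was 0.32 (adjusted p = 0.439). AC154176.2 (chromosome 13, 60622967 to 60629395, plus strand) had 8.54, 7.51 and 18.4 CPM in WT and 0.287, 1.23 and 0.843 CPM in AS (log2 fold change -3.83, standard error 0.62, adjusted p = 0.0345) and lies on the same strand in Dapk1, which had -0.43 (adjusted p = 0.609). Of the 19 genes that fell and are deposited under another type, 11 lie in or across a tested gene that is deposited as protein-coding, 8 on the same strand and 3 on the other. Gm43792 and Gm43237 also lie on the same strand in Apbb2 and Arap2, which are deposited as retained introns and not among these 11. Over the 11 loci that fell, the median log2 fold change was -2.17, and over their 11 coding genes -0.14, in a range of -2.76 to 0.95. Of these 11 coding genes 0 passed the adjustment (3 were lower and 1 higher at an unadjusted p under 0.05). E030022I16Rik, for instance, had 14.3, 11.1 and 7.75 CPM in WT and 2.01, 1.69 and 1.76 CPM in AS (log2 fold change -2.60, standard error 0.44, adjusted p = 0.0412) and its host Ddx6 -0.14. Gm43508 had -2.04 and its host Ldb2 0.95, whereas the pseudogene Gm43712 and its host Nup210l were both lower (-2.17 and -2.76). The pseudogene Gm15467 had 55, 23 and 89 counts in WT and 4, 1 and 3 counts in AS (log2 fold change -4.31). The antisense RNA Gm11712 had 81, 207 and 80 counts in WT and 1, 11 and 10 counts in AS (log2 fold change -4.05). The lincRNA Gm29290 had 90, 63 and 136 counts in WT and 2, 12 and 2 counts in AS (log2 fold change -4.14). The TEC locus Gm43237 had 30.2, 44.9 and 40.2 CPM in WT and 1.43, 6.87 and 5.76 CPM in AS (log2 fold change -3.02). The TEC locus Gm37728 had 13.7, 21.7 and 15.3 CPM in WT and 1.58, 2.14 and 4.43 CPM in AS (log2 fold change -2.64, standard error 0.44, adjusted p = 0.0393). The other genes that fell and carry another deposited type than protein-coding were the TEC loci 5330406M23Rik, Gm42929 and Gm43792, the antisense RNAs Gm13111, Gm15859 and Gm15910, the miRNA locus Gm25535 and, coding in Gencode M21 but deposited as a processed transcript, Rims3, at -3.68 to -1.43. Reads shared with a host or with near copies elsewhere make the value of each such locus uncertain.

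To ask which of these changes differed in the dim tdT cells of the same mice, the genotype effects were compared in one fit of all 12 libraries. The interaction passed the adjusted threshold for 569 of 15084 genes (3.77%), with the version 3 fit for 449 and with the mouse as a block for 877. Of the 569 genes 446 (2.96% of those tested) had the higher and 123 (0.815%) the lower change in bright tdT cells. Of the 63 called genes among these 15084, 23 were among the 569, 11 of the 25 that rose and 12 of the 38 that fell. Svep1 had a log2 fold change of -0.49 in the dim tdT cells (a difference of 5.24 on the log2 scale, adjusted p = 0.00426). Col4a1 and Col4a2 had -1.40 and -1.01 there, lower in AS where the bright tdT cells were higher (differences of 2.92 and 2.66, adjusted p = 0.00426 and 0.00357). Cd34 had -2.14 (a difference of 3.38 on the log2 scale, adjusted p = 0.025), Ednrb 0.09 (a difference of 1.70 on the log2 scale, adjusted p = 0.0231), Sele -0.51 (a difference of 2.48 on the log2 scale, adjusted p = 0.0376) and Il1a -0.43 (a difference of 2.31 on the log2 scale, adjusted p = 0.0474). Malat1 had -0.03 (a difference of -1.82 on the log2 scale, adjusted p = 0.0203), and Rab43 0.35 (a difference of -2.52 on the log2 scale, adjusted p = 0.00881). Aplnr had 2.47. In the fit without the mouse as a block its difference was not shown (adjusted p = 0.665), nor were those of Myc, Tgfb2, Klf9, Ifit1 and Tspan8 (adjusted p = 0.0807, 0.329, 0.391, 0.242 and 0.485). Apln and Ptgis have no row in the dim tdT table and were not compared. In the endothelial identity list the interaction passed for 16 genes and in the basement membrane list for 12, each with the higher change in bright tdT, and for 0 of the interferon-stimulated genes, whose median was 0.82 in bright and 1.11 in dim tdT cells. Marker sums of endothelium and of other cell types moved with genotype in the dim tdT cells. Endothelial identity genes summed to 1817, 1795 and 1294 CPM in WT and 655, 825 and 730 CPM in AS dim tdT libraries. Proximal tubule markers summed to 12901, 2831 and 2928 CPM in WT and 332, 1037 and 305 CPM in AS, and 20 of 22 were lower at an unadjusted p under 0.05 (median log2 fold change -4.16), beside 18.9% of all genes tested in both populations. Macrophage and myeloid markers summed to 8566, 7892 and 12792 CPM in WT and 15428, 14367 and 18582 CPM in AS, far above the bright tdT libraries. In none of these 3 lists did the dim tdT groups overlap, and the part of cell composition in the differences was not tested. Without AS replicate 1 in both populations 68 genes passed the interaction, without AS replicate 2 250 and without AS replicate 3 117.

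**Figure D5:**
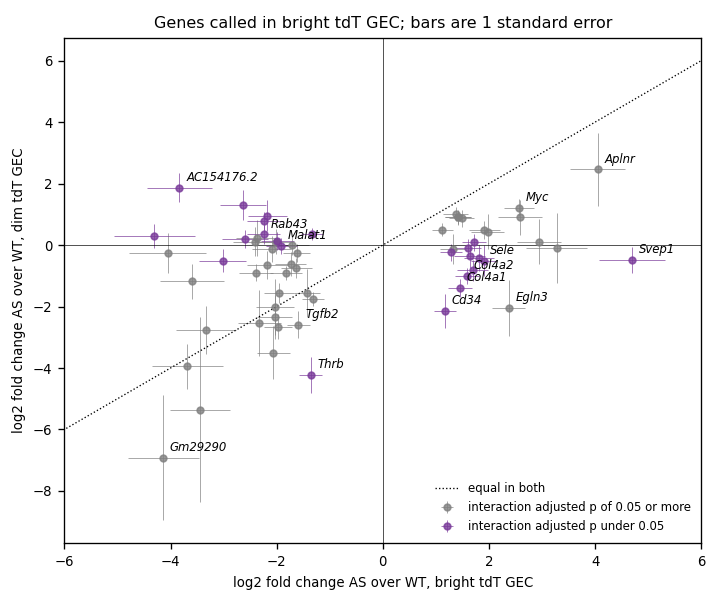
Log2 fold change of AS over WT in dim tdT (vertical) against bright tdT cells (horizontal) for the 63 called genes present in both, with bars of 1 standard error and the line of equal change. Vertical values are from the fit of all 12 libraries. The 23 genes whose interaction passed are in purple, and Col4a1, Col4a2 and Cd34 lie in the quadrant that is higher in bright and lower in dim tdT cells.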

How the data were processed

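Bright tdT GEC of 3 mice per genotype were sequenced, 1 library per mouse, and the dim tdT libraries of the same mice were used for the interaction. The authors aligned the reads with STAR 2.6.0c to GRCm38.p5 with a Gencode annotation, and the counts they deposited are reads per gene from STAR. The strand counted is not given in the sources used here. The tables also hold RPKM values that the authors computed from the counts, and log2 fold change, log2 CPM, likelihood ratio score, p-value and FDR columns of the authors' own comparison. None of these was used.

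Genes were kept by edgeR's filterByExpr, spike-in rows were dropped, counts were scaled by TMM, and AS was tested against WT with the quasi-likelihood test of edgeR 4.0.16 (R 4.3.3, version 4 fit, two-sided) at 0.05 after Benjamini-Hochberg adjustment. CPM, means and intervals (exact binomial, counting error only) were computed from the counts, and the procedure was tested on simulated data. Spike-ins held 0.0286 to 0.110% of the bright tdT counts. Replicates differed by far more than counting error (chi-square of their counts 39.9 to 95.0 for each degree of freedom), and mice are the replicates. The numbers of the dim and bright tdT libraries mark the same mouse, whose deviations from the group means correlated at 0.0791 to 0.386 over genes. With a mouse block the interaction called 877 genes.

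Genes named are those called (values in full for the 10 highest and 10 lowest where average logCPM exceeds 1 and the groups do not overlap), the called and up to 4 most significant members of each list, members that give both directions, genes the study names for this comparison, and Col4a5. Some of these genes are counted but not reported here by name. The members and lists were chosen with earlier results of these data known. Alternatives were DESeq2 1.42.0, the likelihood ratio test, RLE scaling and no scaling factors, other filters, a block, a covariate, all 12 libraries, and each library left out. The main fit is version 4, chosen with its calls and those of version 3, the release's default, known. The version 3 fits, robust dispersions, the fit without both WT replicate 1 and AS replicate 2, and the clock and ribosomal protein lists were chosen after seeing the data. Promoter windows and coordinates are from RefSeq (GRCm38.p6) and Gencode M21. Of the genes tested, 9941 matched a promoter.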

Additional observations from a re-analysis of the deposited data

Results flagged for a closer look

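The genotype effect differed between bright and dim tdT cells for 569 genes in the interaction test. Among the genes called in bright tdT cells it differed for the following. Values are the log2 fold change in bright minus that in dim tdT cells, both from the fit of all 12 libraries. Matrix and endothelial genes had the higher change in bright tdT cells, with 5.24 for Svep1, 2.92 for Col4a1, 2.66 for Col4a2, 2.59 for Col1a2, 3.38 for Cd34, 1.70 for Ednrb, 2.48 for Sele and 2.31 for Il1a. Calm3 (1.77), Cenpb (2.08) and Dusp6 (1.59) rose in bright tdT cells and had the higher change there too. Thrb fell in both, with -1.36 in bright tdT cells in the fit of their 6 libraries. In the fit of all 12 libraries it had -4.23 in dim tdT cells and a difference of 2.95. Among coding genes that fell in bright tdT cells the difference was -1.63 for Atp13a3 and -2.52 for Rab43. Among genes of other types it was -1.82 for Malat1, -5.63 for AC154176.2, -2.95 for 5330406M23Rik, -2.71 for E030022I16Rik, -4.53 for Gm15467, -3.88 for Gm37728, -2.07 for Gm15859, -3.07 for Gm25535 and -2.44 for Gm43237. Endothelial identity genes summed to 13267 to 21482 CPM in bright tdT libraries, and in dim tdT libraries to 1294 to 1817 CPM in WT and 655 to 825 CPM in AS. Proximal tubule markers summed to 2831 to 12901 CPM in WT and 305 to 1037 CPM in AS dim tdT libraries, and the part of cell composition in these differences was not tested.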

How the results depend on the processing

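The count of 65 called genes depended on the model of the spread and on single mice. It was 1117 with DESeq2, 827 with the likelihood ratio test, 152 with robust dispersions, 139 in one fit of all 12 libraries, 39 with every gene that has a count and 0 in the version 3 quasi-likelihood fit. With the proximal tubule covariate it was 0, with 1325 genes in place of 3145 at an unadjusted p under 0.05. Leaving out 1 library gave 0 to 327 called genes and 1682 to 3662 at an unadjusted p under 0.05, and without both WT replicate 1 and AS replicate 2 there were 1128. RLE scaling (75), library sizes alone (61) and a floor of logCPM 1 (73) kept the count within 1.5 times. The replicate block on the label numbers gave 16 calls. WT and AS mice of the same number are different animals. Their deviations correlated at -0.0745, -0.154 and 0.123, and those of unlike number at -0.244 to 0.246. With so few libraries these values do not tell whether the numbers mark a shared batch. For the interaction, the mouse as a replicate block gave 877 genes in place of 569, the version 3 fit gave 449, and leaving out 1 mouse gave 68 to 627. Besides Aplnr, Inhbb and Ifit1, the called genes whose fold moved by over 1.5 times had log2 fold changes of -5.51 to -3.73 for Gm29290, -5.01 to -3.33 for Gm13111, -4.87 to -3.41 for Gm11712, -4.50 to -3.34 for AC154176.2, -4.10 to -3.01 for Cnmd, -4.48 to -2.35 for Trpm6, -3.16 to -2.04 for Ttc39c and -2.33 to -1.43 for Ptprr. Of the values of 204 named genes over 18 settings, 2915 kept direction and side of the threshold, 281 passed it newly, 432 no longer passed and 24, of 11 genes, changed sign with neither value past the threshold (adjusted p of 0.492 or more). With the proximal tubule covariate these were Col4a5 (0.34), Acsm1 (0.25), Hbb-bs (0.25), Slc22a8 (0.38), Uty (0.19), Eif2s3y (1.02) and Hba-a2 (0.48), all below 0 in the reported fit. Eif2s3y (-0.02) also became 0.0021 with every gene that has a count and 0.057 in one fit of all 12 libraries. Without both WT replicate 1 and AS replicate 2, Hbb-bs became 0.27 and Hba-a2 0.11. Leaving out single libraries gave -0.66 to 0.34 for Eif2s3y, -1.25 to 0.20 for Hbb-bs, -0.78 to 0.26 for Hba-a2, -0.24 to 1.69 for Ms4a1, -0.94 to 0.69 for Cd79b, -0.24 to 0.14 for Pi16 and -0.31 to 1.46 for Igkc. The causes were not tested. Depth limits genes such as Svep1 and Fbxl21, whose lower group held 8 and 6 counts in all.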

Other observations

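Lists put together after the values had been seen add the following. Of 21 genes of the circadian clock and its outputs tested, 1 was higher and 3 were lower in AS at an unadjusted p under 0.05, with 6 lower without WT replicate 1. After adjustment 2 of the 21 were lower, beside 0.264% of all genes tested. Per2, a core repressor of the clock, had 14.8, 40.1 and 15.6 CPM in WT and 12.6, 5.18 and 16.7 CPM in AS (log2 fold change -1.04, unadjusted p = 0.061, adjusted p = 0.251), and Dbp, an output factor, had 5.69, 4.32 and 13.3 CPM in WT and 6.81, 5.31 and 10.8 CPM in AS (log2 fold change -0.04, unadjusted p = 0.944, adjusted p = 0.975). The hour at which each mouse was killed is not given in the sources used here, and the part of the clock in these values was not tested. Of 60 cytosolic ribosomal protein genes tested, 11 were higher and 1 was lower at an unadjusted p under 0.05, with a median log2 fold change of 0.11, and 2 were higher with the proximal tubule covariate.

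Markers of large-vessel and lymphatic endothelium, fixed as a check of the sort, held 4 higher and 1 lower of 19 tested at an unadjusted p under 0.05. Igfbp5 and Flt4, the receptor of VEGF-C, had log2 fold changes of 0.87 and 0.69 (adjusted p = 0.145 and 0.152). Of 6 parietal epithelium markers 1 was higher and 1 lower, of 3 fibroblast markers 1 was higher, of 3 red cell markers 1 was lower, and of 4 sex-linked genes none was at an unadjusted p under 0.05. The lower red cell marker was Slc4a1, which is also in the list of the loop, distal tubule and collecting duct. Its log2 fold change was -2.98, and -0.72 with the proximal tubule covariate.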
